A study of Mus musculus with 6 samples.

Results

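Myoglobin and the creatine kinases form a small group of muscle energy genes, and 4 of them were followed here through 6 mouse hearts: Mb, Ckm, Ckmt2 and Ckb. They are 4 of the 18193 genes that the array annotation names alone at a probe set. They were chosen by name, and all 6 probe sets naming only one of them were read: 2 for Mb, 2 for Ckm, 1 for Ckmt2 and 1 for Ckb. The choice was made with earlier results of the same arrays known, in which Mb was among the genes lower in hearts whose descriptions begin with eM than in those that begin with eI. That difference is therefore described below without a test. All 6 probe sets, and so all 4 genes, passed the filter on dim probe sets.

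The hearts came from 3 wild-type mice and 3 mice labelled EphB4 mutant, all of the strain labelled C57B6. EphB4 is a receptor of endothelial cells whose main ligand is ephrin-B2, and by its title the series concerns this signalling in formation of the ventricular wall. No source used here gives how old the mice were, what the mutation is or what the letters mean. Wild-type 1 and 2 and mutant 1 and 2 carry the letters eI, and wild-type 3 and mutant 3 carry eM, so each genotype has a single eM heart. Values are log2 intensities on Affymetrix Mouse430_2 arrays, 1 array a heart, and a difference of 1 is a doubling of intensity. Intensities of different probe sets cannot be compared as amounts of RNA, because probes bind with different strength.

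Myoglobin is the oxygen-binding haem protein of heart and oxidative skeletal muscle. Creatine kinases move a phosphate group between ATP and creatine, which lets muscle buffer and carry energy from mitochondria to the contractile apparatus. The cytosolic enzyme is a dimer of muscle-type subunits (Ckm), brain-type subunits (Ckb) or one of each, and Ckmt2 encodes the mitochondrial form of striated muscle. In the developing heart the brain-type subunit is present early, and the muscle forms rise as heart muscle cells mature.

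Because Mb, Ckm and Ckmt2 were each lower in both eM hearts than in any eI heart and Ckb was not, the stretches before their start sites are shown side by side. Each is the 250 bases upstream of a RefSeq start site (GRCm38.p6), written 5′ to 3′ on the gene's own strand. For Mb the table holds 3 start sites and the most downstream one is shown, chr15:77022728-77022977, minus strand. The others are chr7:19410844-19411093, plus strand, for Ckm, chr13:91876886-91877135, minus strand, for Ckmt2, and chr12:111672339-111672588, minus strand, for Ckb. Capitals mark matches on either strand to the E-box (CANNTG), the nuclear receptor motif AGGTCA, the TATA box, read as TATAAA, the CCAAT box and the MEF2 site.
Mb: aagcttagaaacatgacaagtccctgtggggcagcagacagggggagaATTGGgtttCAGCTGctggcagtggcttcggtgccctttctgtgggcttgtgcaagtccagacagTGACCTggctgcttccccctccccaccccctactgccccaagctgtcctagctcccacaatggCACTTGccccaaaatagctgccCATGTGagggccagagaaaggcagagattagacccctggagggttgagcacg
Ckm: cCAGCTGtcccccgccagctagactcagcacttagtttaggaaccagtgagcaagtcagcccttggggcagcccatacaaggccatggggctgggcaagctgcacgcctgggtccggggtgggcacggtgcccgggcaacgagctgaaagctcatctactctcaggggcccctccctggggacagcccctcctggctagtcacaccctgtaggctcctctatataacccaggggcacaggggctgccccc
Ckmt2: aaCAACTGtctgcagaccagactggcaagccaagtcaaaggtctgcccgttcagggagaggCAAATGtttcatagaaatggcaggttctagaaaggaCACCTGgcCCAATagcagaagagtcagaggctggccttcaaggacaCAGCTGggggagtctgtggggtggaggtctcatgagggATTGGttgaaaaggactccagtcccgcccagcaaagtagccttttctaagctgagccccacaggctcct
Ckb: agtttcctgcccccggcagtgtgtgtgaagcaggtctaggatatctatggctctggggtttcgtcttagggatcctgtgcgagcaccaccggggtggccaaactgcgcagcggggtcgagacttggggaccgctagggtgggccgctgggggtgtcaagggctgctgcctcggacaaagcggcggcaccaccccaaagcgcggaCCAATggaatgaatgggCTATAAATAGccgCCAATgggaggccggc

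The E-box with the letters CAGCTG, one of the forms that muscle bHLH factors can bind, was found in the windows of Mb, Ckm and Ckmt2 and not in that of Ckb. It began 193 bases before the start site in Mb, 249 in Ckm and 107 in Ckmt2, and 13% of all 32851 promoter windows of this length hold it. The wider E-box pattern, which includes those letters, is common, in 66.2% of windows. It matched 3 times in Mb, 1 time in Ckm, 4 times in Ckmt2 and 0 times in Ckb. For Mb, the middle start site, whose window overlaps the one shown, also has CAGCTG, at 133 bases, and the most upstream one does not. The motif AGGTCA, in 14% of windows, was found once before Mb. In Ckb the TATA box, in 12.4% of windows, lies within a match to the MEF2 site, which 2.92% of windows hold, so both rest on the same letters, 28 and 29 bases before the start. CCAAT boxes, in 33.8% of windows, were found before Mb, Ckmt2 and Ckb. The letters CATTCCT, a motif of TEAD factors held by 4.51% of windows, and the CArG box of serum response factor, held by 1.47%, were in none of the 4 windows. These are matches of letters alone; binding was not measured here.

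The arrays were alike in overall brightness, with medians between 5.89 and 6.01. The eM hearts differed from the eI hearts at controls of RNA quality. Beta-actin control probes at the 3-prime end exceeded those at the 5-prime end by 0.28 to 0.41 in eI hearts, by 0.51 in wild-type 3 and by 0.77 in mutant 3. A probe set at the 5-prime end of 18S rRNA read 9.75 to 10.42 in eI hearts but 12.34 in wild-type 3 and 11.62 in mutant 3. Sex also differed: Xist read 6.73 in mutant 1 and 6.78 in mutant 3 against at least 11.51 in the other hearts. The Y-linked Eif2s3y read 9.56 and 9.58 in those mutants and at most 3.79 in the others. All wild-type hearts were thus female, so sex and genotype were partly confounded, and the eM pair was a female wild-type and a male mutant. Ephb4 itself read 7.83 to 8.20 in wild-type and 7.93 to 8.14 in mutant hearts, which does not check the labels because the kind of mutation is unknown.

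Myoglobin differed most among the 4 genes. Mb read 12.28 in wild-type 1, 12.22 in wild-type 2, 12.36 in mutant 1 and 12.49 in mutant 2, so the 4 eI hearts lay within 0.27 of each other. In the eM hearts it read 10.70 in wild-type 3 and 9.09 in mutant 3. Both eM hearts lay below every eI heart, and the range over all 6 hearts was 3.40. Wild-type hearts averaged 11.73 ± 0.89 and mutant hearts 11.31 ± 1.93 (SD, n = 3 each). The genotypes overlapped, and their difference of -0.42 (95% confidence interval -2.70 to 1.86) did not pass the test (limma, Benjamini-Hochberg adjusted p = 0.9997; two-sided exact permutation p = 1). Its direction rested on mutant 3, without which the difference was 0.69.

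The other Mb probe set, designed on another Mb sequence, did not follow this pattern. It read 6.52, 6.22 and 6.39 in wild-type 1, 2 and 3 and 6.26, 6.26 and 6.32 in mutant 1, 2 and 3. All hearts lay within 0.30, and the eM hearts lay inside the range of the eI hearts. Its mean was at percentile 56 of all probe sets on these arrays, that of the brighter one at percentile 96.9. The account of Mb therefore rests on 1 probe set, and why the 2 differ was not tested.

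Ckm, the muscle-type subunit, read 7.92 in wild-type 1, 8.17 in wild-type 2, 8.58 in mutant 1 and 8.30 in mutant 2. It read 7.26 in wild-type 3 and 6.88 in mutant 3, again below every eI heart. The eI hearts of this gene spread over 0.66, more than those of Mb. Wild-type hearts averaged 7.78 ± 0.47 and mutant hearts 7.92 ± 0.91 (SD, n = 3 each). The difference of 0.14 (95% confidence interval -0.98 to 1.25) did not pass (limma, adjusted p = 0.9997; exact permutation p = 0.7), and it was below 0 without wild-type 3 (-0.13), mutant 1 (-0.19) or mutant 2 (-0.05). A dimmer Ckm probe set, at percentile 43.3 of all probe sets, read 5.30 to 5.74 with the eM hearts, at 5.48 and 5.58, inside that range.

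Ckmt2, the mitochondrial form, split by letters in the same way. It read 7.73 in wild-type 1, 7.98 in wild-type 2, 7.47 in mutant 1 and 7.72 in mutant 2, against 6.75 in wild-type 3 and 6.24 in mutant 3. The eM hearts again lay below all eI hearts. By genotype, wild-type hearts averaged 7.49 ± 0.65 and mutant hearts 7.15 ± 0.79 (SD, n = 3 each), with overlap. The difference of -0.34 (95% confidence interval -1.45 to 0.77) did not pass (limma, adjusted p = 0.9997; exact permutation p = 0.5), and it was 0.11 without mutant 3.

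Ckb, the brain-type subunit, was the steady member. It read 12.29, 12.40 and 12.11 in wild-type 1, 2 and 3 and 12.30, 12.13 and 12.30 in mutant 1, 2 and 3. The whole range was 0.29, with wild-type 3 the lowest and mutant 3 among the highest, so the eM hearts did not stand together. The wild-type average was 12.27 ± 0.15 and the mutant average 12.24 ± 0.10 (SD, n = 3 each). The difference of -0.02 had the narrowest interval of the 4 genes, -0.29 to 0.24 (limma, adjusted p = 0.9997; exact permutation p = 1), and it was 0.04 without wild-type 2 or without mutant 2.

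**Figure D1:**
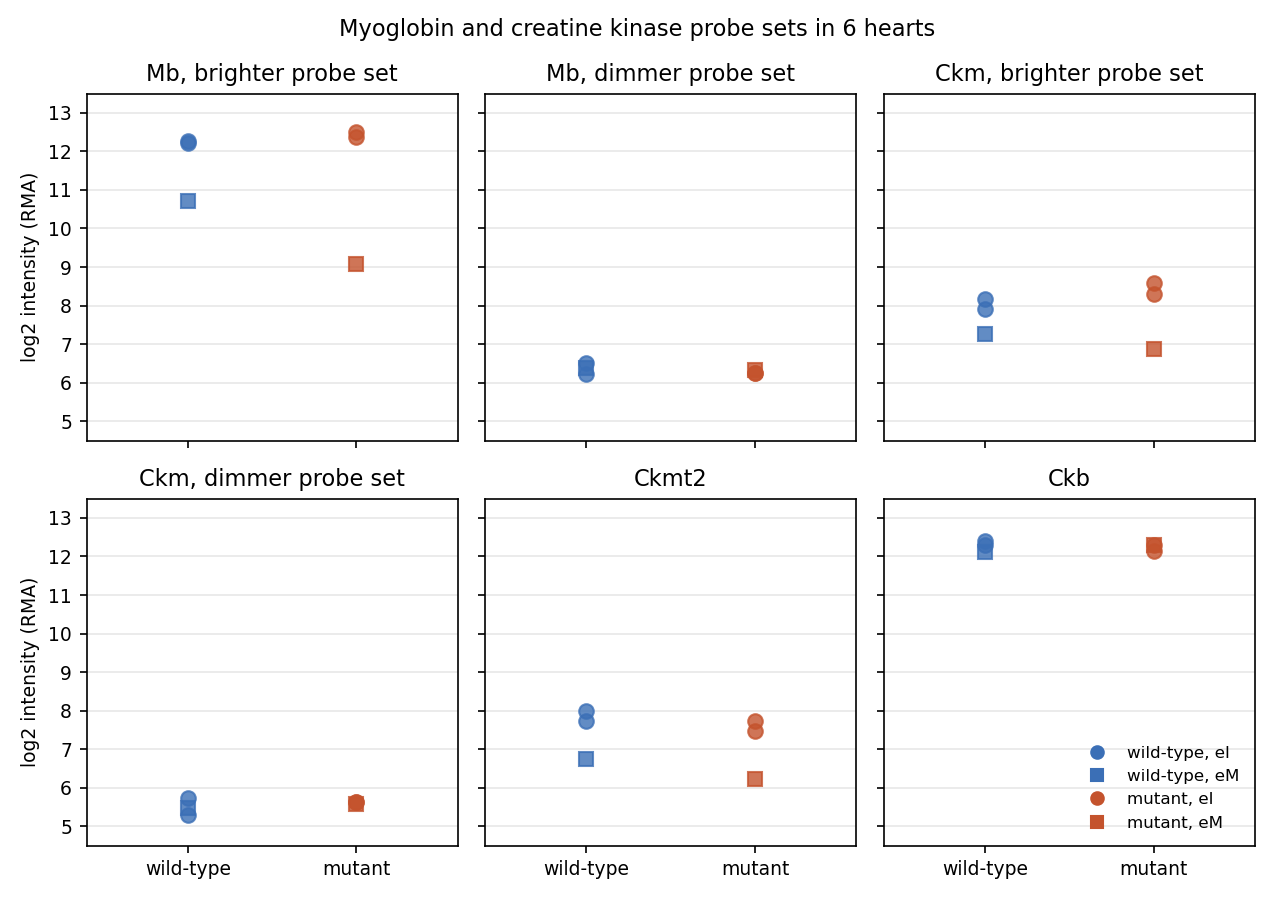
Each point is the log2 intensity of 1 heart at 1 probe set, by genotype on the horizontal axis, with circles for eI and squares for eM hearts. The squares lie below all circles for the brighter Mb and Ckm probe sets and for Ckmt2, and close to the circles for Ckb and the dimmer probe sets.

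None of the 4 genes separated the genotypes: in each, at the brightest probe set, wild-type and mutant values overlapped. Over all 13572 genes tested, 2.14% had every mutant heart above every wild-type heart and 2.25% had every mutant heart below. Limma called 0 of those genes (0%) at an adjusted p of 0.05, while 127 (0.936%) had an unadjusted p under 0.05. The smallest two-sided exact permutation p that 3 against 3 hearts allows is 0.1. The intervals differ widely in what they leave possible. That of Ckb excludes changes beyond 0.29 either way, and that of Mb reaches from -2.70 to 1.86, since the spread within each genotype includes the gap between eI and eM hearts.

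Within the letters, genotype differences of Mb and Ckm ran in opposite directions. Among the eI hearts the mutants were higher by 0.18 for Mb and 0.40 for Ckm, with every mutant heart above every wild-type heart in both genes, as in 17.3% of all genes tested. In the eM pair, which also differed in sex by Xist, mutant 3 lay below wild-type 3 by 1.62 for Mb. That is a 3.07-fold lower intensity, and for Ckm the difference was 0.38. The same combination, higher in both eI mutants and lower in the eM mutant, was found in 10.7% of all genes. Ckmt2 was lower in mutant hearts in both, by 0.26 and 0.51, and Ckb differed by -0.13 in eI and 0.19 in eM. An interaction of genotype with letters, fitted to all genes after these values were seen, did not pass for any of the 4. It was -1.80 for Mb (limma, adjusted p = 0.3097), -0.77 for Ckm (adjusted p = 0.6954), -0.25 for Ckmt2 (adjusted p = 0.8682) and 0.32 for Ckb (adjusted p = 0.7693). Limma called 0 of 13572 genes (0%) for it, and the eM side is 1 heart against 1.

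**Figure D2:**
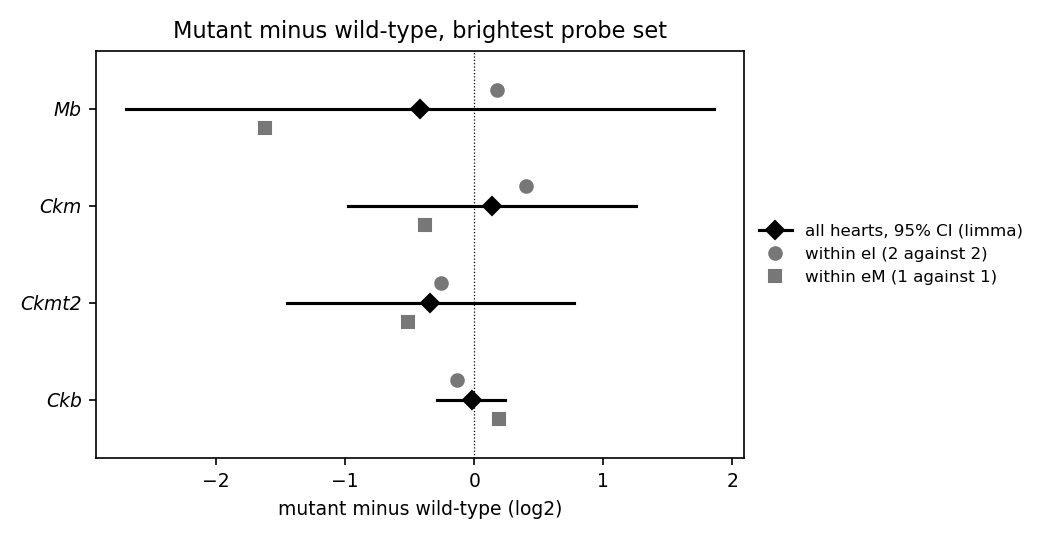
Mutant minus wild-type difference (log2, horizontal axis) for each gene: diamonds with 95% confidence intervals from limma over all hearts, circles within eI and squares within eM hearts. All 4 intervals include 0, and for Mb the eI and eM values lie on opposite sides of 0, at 0.18 and -1.62.

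By letters, 3 of the 4 genes were lower in both eM hearts than in any eI heart, which also held for 23.8% of all genes tested. The proposal of these genes drew on this contrast, so the sizes are a description. Averaged over genotypes, the eM minus eI difference was -2.44 for Mb, a 5.43-fold higher intensity in eI, -1.18 for Ckm (2.26-fold), -1.23 for Ckmt2 (2.34-fold) and -0.07 for Ckb. Mb had the 7th lowest difference of the 13572 genes, Ckmt2 the 103rd and Ckm the 125th. The median over all genes was -0.03, and 6.37% were below -0.5.

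The gap was larger in the mutant pair for each of the 3 genes. For Mb it was -1.54 within wild-type and -3.34 within mutant hearts, or 2.92-fold and 10.1-fold. For Ckm it was -0.79 and -1.56, and for Ckmt2 -1.10 and -1.35, the closest agreement between genotypes of the 3. Ckb had -0.24 in wild-type and 0.09 in mutant hearts, with no common direction. Of all 3230 genes lower in both eM hearts, 72.6% were, like these 3, lower in mutant 3 than in wild-type 3, against 51.4% of all genes tested.

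**Figure D3:**
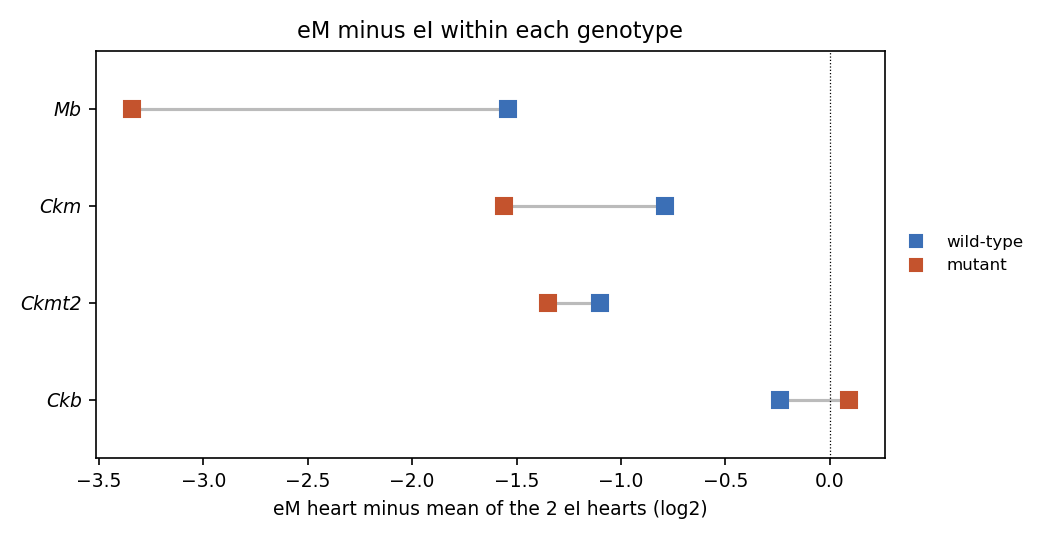
Difference between the eM heart and the mean of the 2 eI hearts of the same genotype (log2, horizontal axis), with squares for wild-type and for mutant hearts joined by a line. Mb, Ckm and Ckmt2 are below 0 in both genotypes, farthest for Mb in the mutant hearts at -3.34, and Ckb lies at -0.24 and 0.09.

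Several measures moved with the letters beside these genes. Heart 3 of each genotype had the larger beta-actin difference and the brighter 18S signal given above, and mutant 3, the lowest heart for Mb, Ckm and Ckmt2, had the largest beta-actin difference. Their part in the result was not tested. In whole hearts, fewer cells of a type and less RNA per cell cannot be told apart. The 18 cardiomyocyte markers had a mean level of 13.73 in wild-type 3 and 13.64 in mutant 3, above the 13.56 to 13.61 of the eI hearts; with each array centred on its median, mutant 3 (13.64) lay below wild-type 2 (13.67). Of the 18 markers 12 were lower in eM hearts (55.2% of all genes were), and the median eM minus eI difference was -0.05 (eM hearts below all eI hearts at 5 of 18 markers and above them at 4, against 23.8% and 20.8% of all genes), from Ttn, the giant sarcomere spring, at 1.64 and the calcium channel Ryr2 at 0.76 to phospholamban (Pln) at -0.75. When Ttn was left out, which was decided after seeing the data, the mean level of the remaining 17 markers ranged from 13.68 to 13.71 over the eI hearts, and mutant 3 (13.65) lay below and wild-type 3 (13.75) above that range. Several of these markers, such as Myl2 at 14.58 to 14.74, read near the highest value on the arrays, 14.79. Whether a change could show there was not tested. The part of cardiomyocyte content in the result was not tested either.

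Mb and Ckm are also genes of skeletal muscle, whose defining regulators were dim in every heart. Myf5 read 2.81 to 2.99, Myog 4.73 to 5.20 and the brighter Myod1 probe set 5.22 to 5.65. The mean level of the 8 tested skeletal markers of 17 was at most 7.18 in eI hearts, and it was 7.09 in wild-type 3 and 7.13 in mutant 3. Mylpf, a fast myosin light chain, was brighter, at 8.26 to 8.84 in eI hearts and 9.38 and 9.27 in eM hearts, the opposite order to Mb and Ckm. Tnni2, the fast troponin I, had the same order as Mb and Ckm, at 10.25 to 10.34 in eI hearts, 10.02 in wild-type 3 and 9.42 in mutant 3. It differed by -0.59 and Actn3, the fast alpha-actinin, by 0.72. Of the 8 markers 5 were lower and 3 higher in eM hearts (55.2% and 44.8% of all genes). Both eM hearts lay below every eI heart at 2 markers and above at 2 (23.8% and 20.8% of all genes).

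Blood and endoderm markers were lower in eM hearts, as Mb was. All 9 tested erythroid markers of 14 were below every eI heart in both eM hearts (23.8% of all genes were), with a mean level of 9.33 to 10.21 in eI hearts, 8.82 in wild-type 3 and 8.76 in mutant 3. Among them were Alas2, the first enzyme of haem synthesis in red cells (-1.97), the band 3 anion exchanger Slc4a1 (-1.94) and Rhag (-1.71). Wild-type 1 had the lowest erythroid level of the eI hearts, 9.33, still above both eM hearts. Liver and endoderm markers were below every eI heart in both eM hearts at 7 of 7 tested genes of 10 (again against 23.8%), with mean levels of 5.61 and 5.38 against 6.63 to 8.68, and Afp, the fetal serum protein, read 3.81 and 3.03 against 7.77 to 11.83. Their part in the result was not tested.

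Markers of the remaining cell types shifted less as lists. Medians of eM minus eI were 0.24 for smooth muscle and pericytes (Tagln 1.19, Rgs5 1.21, Kcnj8 -0.81), whose mean level was 8.97 and 8.92 against 8.58 to 8.76. They were 0.01 for neuronal and neural crest genes (Tubb3 1.55, Elavl4 0.59, Map2 -0.26), cells in which Ckb is also known to be abundant. For endothelial and endocardial genes the median was -0.14 (Emcn -1.18, Egfl7 -0.73, Pecam1 0.41), and for epicardial genes 0.02, which turned to -0.012 with quantile normalization (Wt1 0.94, Aldh1a2 -0.82, Tbx18 0.69).

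The muscle isoenzymes of energy metabolism, relatives of Ckm and Ckmt2 in that muscle uses its own form of a common enzyme, lay mostly on the same side. Of 17 listed genes 14 were tested, 12 had a negative eM minus eI difference (55.2% of all genes did), and the median was -0.30 against -0.03 over all genes. In 11 of the 14 both eM hearts were below every eI heart (23.8% of all genes). The list was chosen with earlier results of these arrays known, so this is a description. Cox8b, a cytochrome oxidase subunit of striated muscle, read 9.35, 9.16, 9.46 and 9.47 in the eI hearts against 8.36 in wild-type 3 and 7.14 in mutant 3. Pdk4, which restrains glucose oxidation, differed by -0.98, Ldhb, the heart-type lactate dehydrogenase, by -0.60 and the fatty acid carrier Fabp3 by -0.56. Without mutant 3 the median of the list was -0.20, and without wild-type 3 it was -0.45.

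Their widely expressed counterparts had no common direction. Of 18 tested genes of 19, 9 were lower and 9 higher in eM hearts (55.2% and 44.8% of all genes), with a median of -0.02. Cpt1a, the liver form of the enzyme that admits fatty acids to mitochondria, was the lowest at -1.05, and Fabp5 (-0.63) and Ampd3 (-0.50) were lower too, while the glucose transporter Slc2a1 was higher at 0.53. Pairs of a muscle form and its counterpart, chosen after their values were seen, did not all move apart. Cox8a, the common counterpart of Cox8b, differed by -0.16 and Cox8b by -1.61. Other pairs moved alike: Fabp5 and Fabp3 by -0.63 and -0.56, Pfkp and Pfkm by -0.16 and -0.15, and Hk1 and Hk2 by 0.33 and 0.24. Ckb and Ckm, at -0.07 and -1.18, moved apart as Cox8a and Cox8b did.

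Genes that supply creatine or hand on its phosphate stayed close between the letters. The median over 16 tested of 17 listed genes was -0.04, and 10 were lower and 6 higher (55.2% and 44.8% of all genes). Slc6a8, the creatine transporter, read 9.57 to 9.66 in the eI hearts, 9.51 in wild-type 3 and 9.25 in mutant 3. Its dimmer probe set read 7.99 to 8.21 in the eI hearts, with wild-type 3 (8.04) and mutant 3 (8.06) inside that range. Ckmt1, the mitochondrial creatine kinase of other tissues, was dim, at 4.99 to 5.88 and 3.65 to 4.04 at its 2 probe sets, with a difference of -0.63 at the brighter. The mitochondrial pore genes Vdac2 and Vdac3 differed by -0.15 and -0.20.

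Other globins and oxygen-handling genes were lower at 8 of 9 tested genes of 12 (55.2% of all genes were), with a median of -0.44. They include the embryonic globins Hba-x (-1.10) and Hbb-bh1 (-0.63), which are also in the erythroid list. Egln3, an oxygen-sensing prolyl hydroxylase, differed by -0.84, and Epas1, a hypoxia-inducible factor, by -0.54.

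The tested regulators of muscle and mitochondrial genes lay mostly higher in eM hearts. Of 23 tested of 24 listed, 18 were higher in eM hearts (44.8% of all genes were), with a median of 0.15. At an adjusted p of 0.05, limma for the letters with genotype as a term called 5 higher (4.47% of all genes) and 0 lower (5.82%). The same fit called 5 of 14 muscle isoenzymes and 4 of 9 erythroid markers lower, and 0 of either higher. These lists were chosen with earlier results of the arrays known, so the counts are a description and not a test. Myocd, a coactivator of serum response factor, read 8.44 to 8.93 in the eI hearts and 9.87 in both eM hearts, a difference of 1.13. Gata4 differed by 0.57, Ppargc1b, a coactivator of mitochondrial genes, by 0.53 and Tbx5 by 0.50. Both eM hearts were above every eI heart at 11 of the 23 (20.8% of all genes) and below at 3 (23.8%): Nfatc4 (-0.44), Ppargc1a, the relative of Ppargc1b (-0.43), and Mef2b (-0.25), named after their values were seen. The median of the list was 0.07 without wild-type 1 and 0.08 without mutant 3.

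**Figure D4:**
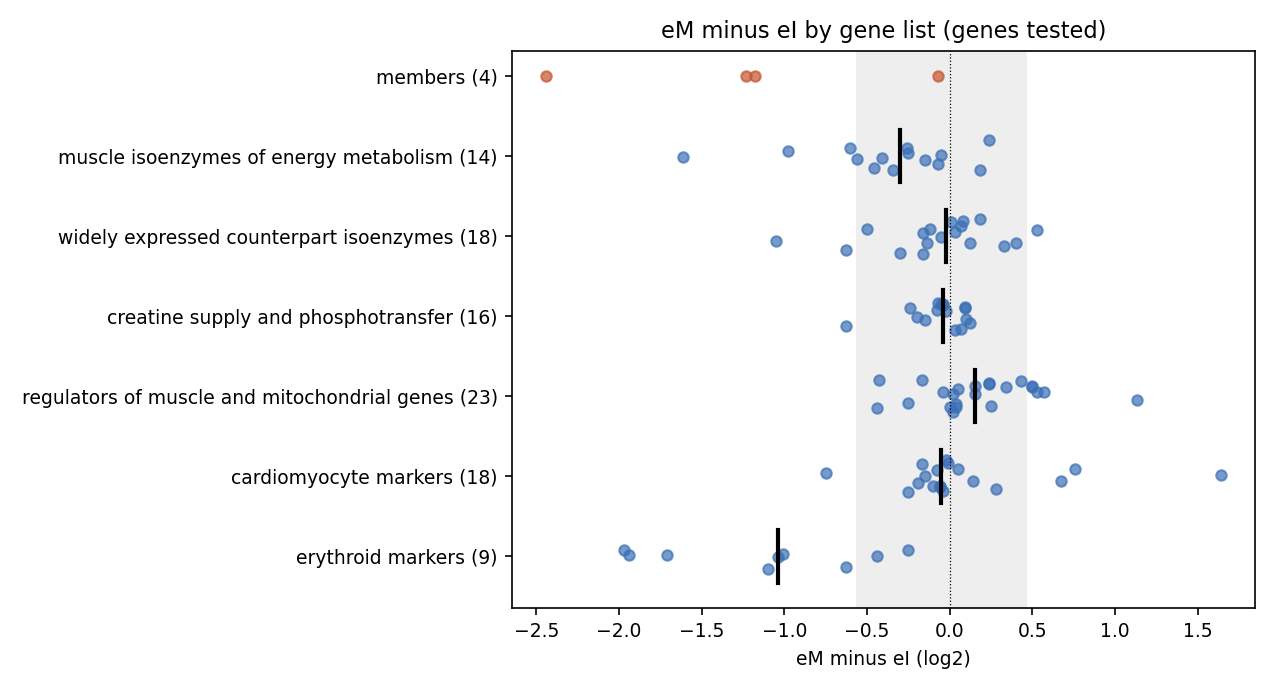
Each point is the eM minus eI difference of 1 gene (log2, horizontal axis), for the 4 genes and for 6 gene lists with the number tested in brackets; black bars are list medians and the grey band holds the values between the 5th and 95th percentile of all genes tested (-0.56 to 0.46). Mb, Ckm and Ckmt2 lie left of the band, the muscle isoenzymes have a median of -0.30 and the regulators one of 0.15.

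Between genotypes none of these lists had a called gene (limma, 0 of 13572 genes). Median mutant minus wild-type differences were -0.06 for muscle isoenzymes (Pygm, muscle glycogen phosphorylase, -0.16 ± 0.10 (SE), Phka1 -0.12 ± 0.09, Pgam2 -0.10 ± 0.14, Ldhb -0.16 ± 0.25). They were -0.02 for their counterparts (Pygl -0.19 ± 0.17, Phka2 -0.15 ± 0.10, Phkg2 0.14 ± 0.11, Hk1 -0.14 ± 0.16). Creatine supply and phosphotransfer had -0.03 (Slc6a8 -0.13 ± 0.12, Ak1 -0.13 ± 0.13, Ak5 0.14 ± 0.14, Nme1 -0.10 ± 0.09). Regulators had 0.00 (Nkx2-5 0.17 ± 0.12, Esrrg -0.12 ± 0.10, Mef2b -0.20 ± 0.15, Gata6 -0.10 ± 0.08), and globins and oxygen handling 0.05 (Ngb -0.08 ± 0.19, Hba-x 0.18 ± 0.45, Hbb-bh1 0.12 ± 0.29, Epas1 -0.14 ± 0.23). The median over all genes was 0.00. Larger medians stood among the cell type lists, at -0.74 for liver and endoderm, 0.35 for epicardial and 0.18 for erythroid markers. In all of these the mean levels of the genotypes overlapped. Liver and endoderm markers averaged 8.68 in wild-type 2, 6.65 in wild-type 1, 5.61 in wild-type 3 and 5.38 to 6.84 in mutant hearts. Epicardial markers averaged 8.36 to 8.73 in wild-type and 8.7 to 8.82 in mutant hearts. Erythroid markers averaged 8.82 to 10.21 in wild-type and 8.76 to 10.14 in mutant hearts. Medians of the other cell type lists lay between -0.09 and 0.04, with -0.03 for cardiomyocyte markers.

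The 4 genes did not share one profile. Likeness was measured as the root mean square difference between 2 genes' 6 values, each gene centred on its own mean. Ckm and Ckmt2 were the closest pair, at 0.31. Mb stood 0.69 from Ckmt2 and 0.72 from Ckm, because its gap between letters was larger, and Ckb stood 0.59 from Ckm, 0.60 from Ckmt2 and 1.24 from Mb.

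For each member, other genes on the array were closer than any other member. Nearest to Mb were Prr15 (0.17), Gtsf1 and Tm4sf1 (0.20 each), Snap91 (0.24) and Sfrp1 (0.26). Gtsf1, for example, read 11.77 to 11.90 in the eI hearts, 9.95 in wild-type 3 and 8.14 in mutant 3. Nearest to Ckm were Ptx3 (0.08), Ntn4 and Mlf1 (0.10 each), Pde1a and Itga8 (0.12 each), which like Ckm were highest in mutant 1. Nearest to Ckmt2 were Ctsh, Emcn, Tmem71 and Fam174b (0.11 each) and Rec114 (0.12). The genes nearest to Ckb were Ak4 (0.02), an adenylate kinase of mitochondria, Troap, Xxylt1 and Rhpn1 (0.03 each) and Scamp3 (0.04), all of them nearly flat. The 6 hearts are few and the gap between letters dominates these distances, so they describe these arrays only.

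**Figure D5:**
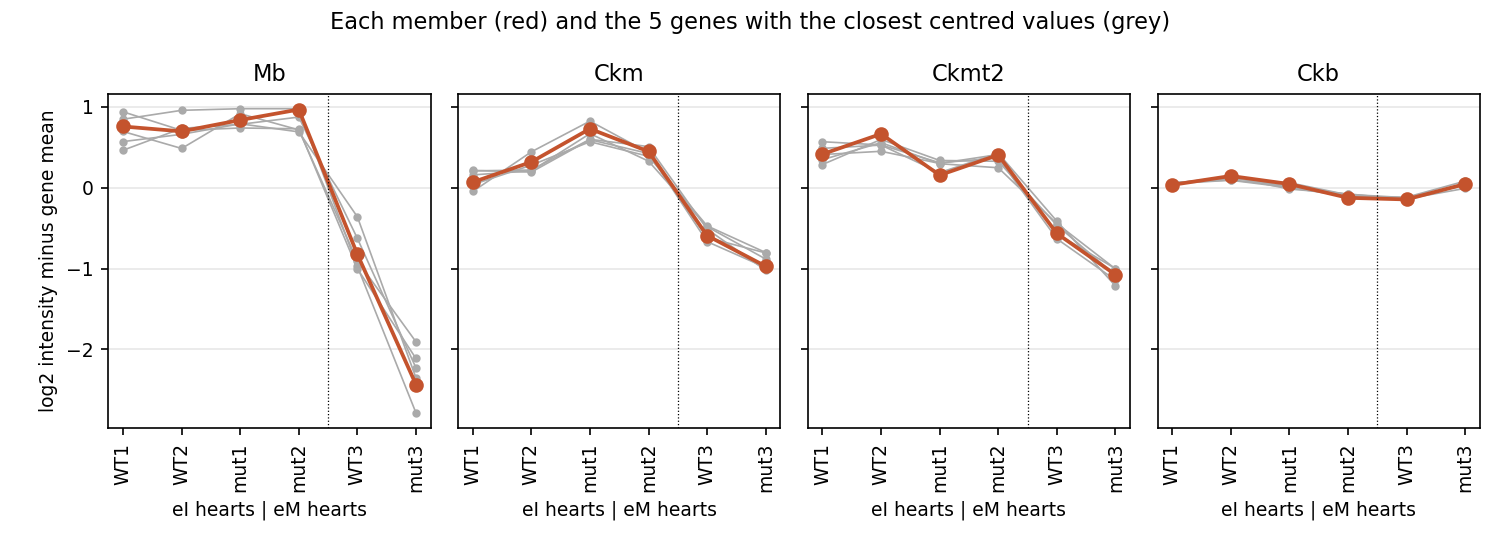
Log2 intensity minus the gene's mean over 6 hearts (vertical axis), with eI hearts left and eM hearts right of the dotted line; red is the named gene and grey are the 5 genes nearest to it. Mb falls in both eM hearts and farther in mutant 3, Ckm and Ckmt2 do so by less, and Ckb stays within 0.29 over all hearts.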

How the data were processed

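Biotin-labelled RNA of 6 mouse hearts was measured on Affymetrix Mouse430_2 arrays, per the labels. What the authors deposited are log2 intensities from RMA, per the submitters' processing notes, with no version; the lowest was 2.42 and the highest 14.79. Scanner files were not used, so background correction could not be varied and signal over background is unknown.

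Groups and replicate numbers came from the titles and eI or eM from the descriptions; each array counts as 1 animal because the design text names 6 mice. The table holds 45101 probe sets, 64 of them controls that entered no test. Genes were named from the platform annotation (34945 probe sets named 1 gene, 932 several, 9160 none here; 34741 gene IDs matched the RefSeq table of GRCm38.p6). The lowest 40% of probe sets by mean (below 5.38) were left out, and a gene was read at its brightest probe set, which gave 13572 genes tested of 18193.

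The genotypes were compared in R 4.3.3 by limma 3.58.1 (lmFit, eBayes, two-sided, Benjamini-Hochberg over all genes, threshold 0.05, 95% intervals) and single genes also with exact permutation. The fit was tested on simulated data. Same-numbered hearts deviated together (r = 0.18, 0.30 and 0.70 over all genes tested), so the title numbers count as paired by the rule used. The hearts numbered 3 are also the eM hearts, so number and letters cannot be told apart in the 0.70. The smaller values follow the letters too. Every wild-type and mutant pair of eI hearts correlated at 0.18 to 0.46, and every pair of an eI and an eM heart at -0.69 to -0.37. Wild-type 1 with mutant 2 (0.46) and wild-type 2 with mutant 1 (0.43) correlated more than same-numbered hearts 1 and 2. The fit with the replicate number as a block changed no call. The members and all gene lists were chosen with earlier results of these data known. Genes of a list were named by a fixed rule: the 4 of smallest p between genotypes and the 4 (cell type lists 3) of largest eM minus eI difference. Likeness was a root mean square difference of centred values, with the 5 nearest genes named. Promoters came from RefSeq, where all 4 genes matched. Alternatives were blocks, filters, scalings, eBayes settings, probe set choice and leaving out each heart. Figures used matplotlib 3.10.9 in Python 3.11.15.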

Additional observations from a re-analysis of the deposited data

Results flagged for a closer look

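Mb in the mutant hearts lay above wild-type in the eI hearts and below it in the eM hearts, so that the 2 differences differ by -1.80 log2. Ckm did the same, with a difference of -0.77. In both genes every eI mutant heart was above every eI wild-type heart, and the single eM pair ran the opposite way. That combination was found in 10.7% of all genes tested, and the eM pair also differed in sex by Xist. The interaction did not pass for either (limma, adjusted p = 0.3097 for Mb and 0.6954 for Ckm), and the eM side has 1 heart per genotype.

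At the dimmer Mb probe set, wild-type 1 read 6.52 while the other eI hearts lay from 6.22 to 6.26, and its gap to the nearest heart was 0.867 of the group's range. This was 1 of 6 probe sets examined in the 4 eI hearts, and chance sets apart a heart in about 1 of 20 such groups.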

How the results depend on the processing

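None of the 4 genes was called between genotypes under any of the 14 alternatives (limma, adjusted p from 0.9974 to 1), including the replicate block, which left the differences at -0.42 for Mb, 0.14 for Ckm, -0.34 for Ckmt2 and -0.02 for Ckb with 0 genes called in all. Leaving out each heart in turn gave -1.01 to 0.69 for Mb, -0.19 to 0.66 for Ckm, -0.71 to 0.11 for Ckmt2 and -0.10 to 0.044 for Ckb, and 0 to 2 genes called over the whole array, the 2 being Xist and Eif2s3y without mutant 2. Signs turned without mutant 3 for Mb (0.69) and Ckmt2 (0.11), without wild-type 3 (-0.13), mutant 1 (-0.19) or mutant 2 (-0.05) for Ckm, and without wild-type 2 (0.044) or mutant 2 (0.035) for Ckb.

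The eM minus eI differences of Mb, Ckm and Ckmt2 kept their sign with both scalings and with probe sets averaged. Leaving out single hearts could not turn it, since both eM hearts lay below every eI heart. Without single hearts the differences were -3.34 to -1.54, -1.56 to -0.79 and -1.35 to -1.10, and for Ckb -0.24 to 0.087. Averaging a gene's probe sets gave -1.20 for Mb and -0.61 for Ckm, since the dimmer probe set of each did not move. Within wild-type hearts the values were -1.54 for Mb, -0.79 for Ckm and -0.24 for Ckb, the same as without mutant 3. Within mutant hearts they were -3.34, -1.56 and 0.087, the same as without wild-type 3. Quantile normalization and median centring moved the median of all genes to -0.05 and -0.03. The list medians, alternatives chosen after seeing the data, kept their sign under both scalings except the epicardial one, -0.012 after quantile normalization. Hearts were left out for 5 lists (both isoenzyme lists, regulators, erythroid and cardiomyocyte markers), and medians turned sign for the cardiomyocyte list without mutant 3 (0.018) and for the counterpart isoenzymes without wild-type 3 (0.0039) or mutant 2 (0.0024). With 3 arrays per genotype and 1 eM heart in each, small differences between genotypes could not be resolved.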
